A study of Homo sapiens with 6 samples.

Results

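Keratins 5, 14, 15, 17, 6A, 6B, 6C, 16 and 75 were followed in AALE cells, human bronchial basal epithelial cells made immortal with SV40 genes and telomerase (hTERT). The genes were chosen by symbol in the deposited count table, as the keratins of basal and of wound-activated epithelium: 9 of 57736 genes, of which 8 passed the filter on low counts and were tested among 15421. The control group carried a lentiviral control vector and the NRG1 group a lentiviral vector overexpressing NRG1, which encodes neuregulin, a growth factor that binds receptors of the ERBB family. Both groups share the AALE background and its SV40 and hTERT genes, the small airway growth medium and the selection into stable pools. PolyA RNA was sequenced from 3 libraries per group, and separate cultures are not stated in the labels, so a p-value here measures only how these libraries vary, possibly for technical reasons. In bulk RNA, fewer cells with a keratin and less of it per cell cannot be told apart.

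Keratins are the intermediate filament proteins of epithelial cells. A filament is built from pairs, each of a type I chain (here keratins 14, 15, 16 and 17) and a type II chain (here keratins 5, 6A, 6B, 6C and 75), so the chains of both types are made together. KRT5 with KRT14 forms the network of basal cells in stratified epithelium and the airway, and KRT15 is a further type I partner in basal cells. KRT6A, KRT6B, KRT6C, KRT16 and KRT17 are little used in resting epidermis and are induced in wounded or hyperproliferative epithelium. KRT75 belongs to the hair follicle.

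The type I members lie on chromosome 17 and the type II members on chromosome 12 (GENCODE 29, GRCh38; the submitters' processing notes name hg19, so no coordinates are given). Some of these genes are close copies, and their expected counts, estimates that share out reads fitting more than 1 gene, depend on how those reads were divided. The coding sequences of KRT6A, KRT6B and KRT6C are each 1692 bases long without the stop codon and differ among the 3 genes at 51 positions. The stretch of 75 coding bases (671 to 745) with the most differences is shown. Within the coding sequence, the only part searched, it is where a read can best tell the copies apart. Capitals mark the 10 positions at which the 3 are not all alike.
KRT6A: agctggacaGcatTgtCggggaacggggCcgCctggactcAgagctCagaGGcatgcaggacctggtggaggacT
KRT6B: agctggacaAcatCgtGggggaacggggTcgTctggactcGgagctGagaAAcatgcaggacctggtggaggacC
KRT6C: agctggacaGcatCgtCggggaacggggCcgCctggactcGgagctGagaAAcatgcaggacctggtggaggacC
KRT6A and KRT6C were 97.9% identical over the coding sequence, KRT6A and KRT6B 97.5%, and KRT6B and KRT6C 98.5%. Of all windows of 50 bases in the principal transcript, 53.6% in KRT6C, 47.1% in KRT6B and 39.1% in KRT6A also occurred in another keratin gene or pseudogene. The share was 23.8% for KRT14, 22.0% for KRT16 and 17.4% for KRT17, and 3.99% for KRT5, 0.725% for KRT15 and 0.0440% for KRT75. The longest run that KRT14 and KRT16 have in common, 158 coding bases (310 to 467 of KRT14), is shown because no read inside it can separate these members.
KRT14 and KRT16: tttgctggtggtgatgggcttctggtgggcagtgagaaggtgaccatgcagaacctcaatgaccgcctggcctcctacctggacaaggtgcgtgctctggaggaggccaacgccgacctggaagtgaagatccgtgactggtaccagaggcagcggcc
KRT5, KRT15 and KRT75 therefore have nearly all of their sequence to themselves, and the KRT6 genes the least.

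Library depth was 8612234 to 13207620 expected counts. NRG1 itself, a check of the labels, had 7.87 to 12.3 CPM (counts scaled to library size, with the TMM correction for the makeup of each library) in the control libraries and 3781 to 6647 CPM in the NRG1 libraries. Control 3 and NRG1 1 stood apart from the other libraries of their groups on the first 2 principal components, and the immediate early gene EGR1 was high in both, at 3794 CPM (control 3) and 1020 CPM (NRG1 1), with 144 to 271 CPM elsewhere. NRG1 2 and NRG1 3 were by far the closest pair. A chi-square statistic between their counts averaged 2.66 per gene, against 18.8 to 95.6 for every other pair, so these libraries vary less between them than the rest do, although by more than sampling noise. Among the tested keratins they differed by at most 0.19 on the log2 scale. Of 9 airway basal markers 8 were tested, and DAPL1 was near 0, at most 1.59 CPM. TP63, the master regulator of basal cells, was at 158 to 228 CPM in all 6 libraries. Before adjustment, p was under 0.05 for 3 of the 8 tested basal markers, all lower in NRG1 (6.72% of all genes were). NGFR was at 18.3, 46.8 and 302 CPM (control 1 to 3) against 15.2, 15.7 and 13.6 CPM (NRG1 1 to 3). The others were S100A2 (log2 fold change -0.95) and ITGB4 (-0.46). The basal list summed to 1807 to 3111 CPM over the control libraries and 1631 to 2156 CPM over the NRG1 libraries, with overlap. The 5 simple epithelium markers summed to 898 to 1145 CPM (control) and 1542 to 1654 CPM (NRG1). Within that list KRT19 and EPCAM were above every control in each NRG1 library (log2 fold changes 1.94 and 0.65), while KRT8, KRT18 and KRT7 overlapped between the groups. The 8 fibroblast markers summed to 44.7 to 70.7 and 22.1 to 28.9 CPM, nearly all of it COL1A1 and DCN. Of 5 leukocyte markers, CD3E was at 0 in all libraries and PTPRC at most 0.154 CPM, but CD68, a lysosomal protein abundant in macrophages, was at 23.9, 18.9 and 32.0 CPM (control 1 to 3) against 24.7, 5.61 and 3.69 CPM (NRG1 1 to 3). The 6 secretory markers summed to under 1 CPM in 4 libraries, to 26.5 CPM in control 3 and to 56.3 CPM in NRG1 3. The part of these markers in the keratin levels was not tested.

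Per length, KRT5, KRT17, KRT6A and KRT14 carried nearly all keratin RNA of the set. In control, the level per kilobase of coding length was 2750 ± 1062 CPM for KRT5, 2169 ± 224 for KRT17, 1578 ± 367 for KRT6A and 678 ± 258 for KRT14 (SD, n = 3 each). KRT5 and KRT17 did not differ beyond their spread. KRT16 followed with 102 ± 31.3 CPM per kilobase, then KRT6B with 40.3 ± 10.5, KRT6C with 18.7 ± 3.58, KRT15 with 8.58 ± 3.19 and KRT75 with 0.513 ± 0.295. In the NRG1 group KRT5 (1926 ± 232) and KRT6A (1591 ± 478) overlapped at the top, and KRT17 had 1088 ± 48.8 CPM per kilobase. KRT15, below KRT6C in control, lay above KRT16 and KRT6C there with 42.2 ± 28.1, although its spread covers theirs. Reads also come from outside the coding sequence. The KRT15 transcript has 2394 bases, 1368 of them coding, and that of KRT16 has 1644, 1419 of them coding. The order of KRT15 and KRT16 in the NRG1 group therefore depends on which length is used.

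**Figure D1:**
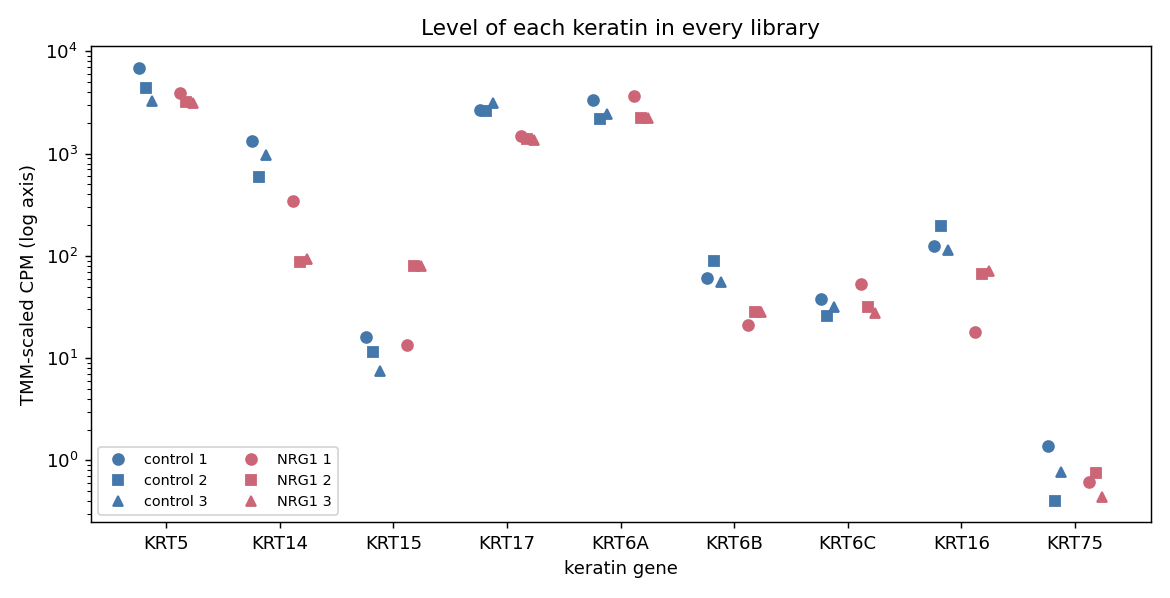
TMM-scaled CPM on a log axis for each of the 9 keratins in the 3 control (blue) and 3 NRG1 (red) libraries, with a marker shape per replicate number. Each NRG1 library lay below every control for KRT14, KRT17, KRT6B and KRT16, KRT15 was high in NRG1 2 and NRG1 3 alone, and KRT6A and KRT6C overlapped between the groups.

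Comparing NRG1 with control asks how the growth factor changes gene expression in these airway cells. The NRG1 libraries held less KRT14, KRT17, KRT16 and KRT6B than any control library, and 2 of the 3 held more KRT15. With adjustment over all genes by Benjamini-Hochberg in edgeR's quasi-likelihood test, however, 0 of the 8 tested members passed the threshold of an adjusted p under 0.05, as did 0.00648% of all genes (NRG1 alone). At an unadjusted p under 0.05, 4 members were lower (6.72% of all genes were) and 1 was higher (5.07% of all genes were). The groups did not overlap in 4 of 8 members (19.6% of all genes). In these 4 every NRG1 library lay below every control, as in 10.2% of all genes, and in 0 members every NRG1 library lay above, as in 9.36%. DESeq2 on the same counts called 3 members as lower (0.759% of all genes) and 1 as higher (0.597%). The median log2 fold change was -0.75 over the 8 members and 0.00034 over all genes tested. Members were chosen with earlier results known, so these counts describe them and are not an independent test.

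**Figure D2:**
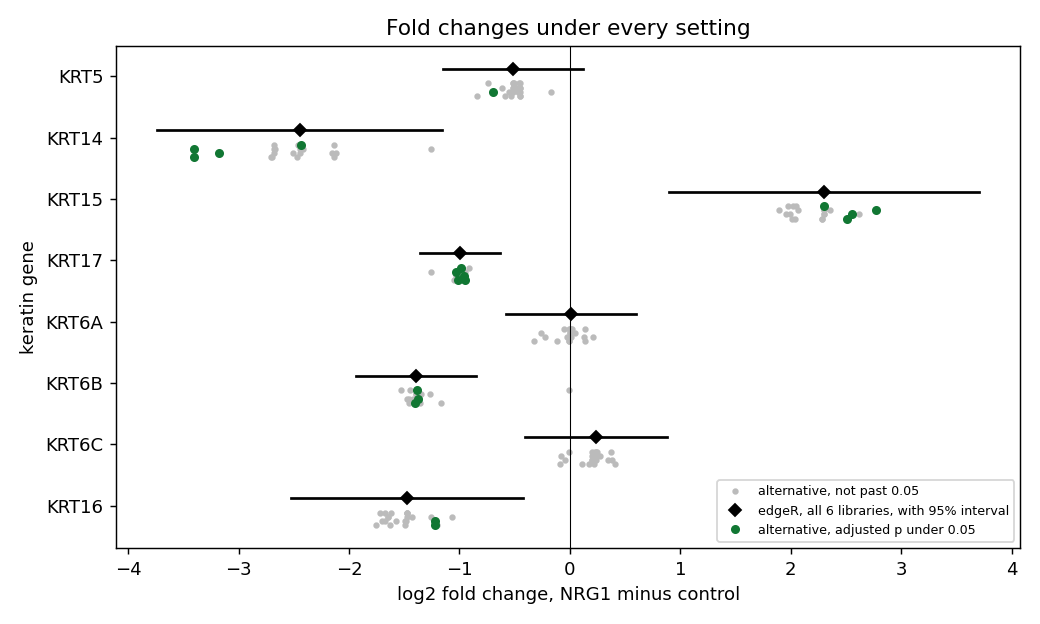
Fitted log2 fold change (NRG1 minus control) of the 8 tested keratins with all 6 libraries, as a diamond with its 95% interval, and under 23 alternative settings, as dots that are green where the adjusted p was under 0.05. KRT14, KRT17, KRT6B and KRT16 lay below 0 and KRT15 above 0 in every setting, with 1 KRT6B dot next to 0 where the KRT6 genes were summed, and KRT6A lay on both sides of 0. Where close copies were summed, each summed gene has the dot of the sum.

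Among the basal keratins, KRT14 was at 1322, 591 and 965 CPM (control 1 to 3) against 348, 87.5 and 93.5 CPM (NRG1 1 to 3). The groups did not overlap, and NRG1 1 lay between the controls and the other NRG1 libraries. The means were 959 ± 366 and 176 ± 148 CPM (SD, n = 3 each). The fitted log2 fold change was -2.45 (SE 0.56, 95% interval -3.74 to -1.16). In edgeR the adjusted p was 0.268, and in DESeq2 it was 0.000788. Without NRG1 1, which left the close pair NRG1 2 and NRG1 3, KRT14 passed edgeR with a log2 fold change of -3.40 (adjusted p = 0.0404). Without NRG1 2 it was -2.12 (adjusted p = 0.792 in edgeR), and without NRG1 3 it was -2.14 (adjusted p = 0.850). With NRG1 2 and NRG1 3 summed to 1 library, a setting chosen after seeing the data, KRT14 was at -2.13 (adjusted p = 0.807). With control 3 and NRG1 1 both left out, a setting chosen after seeing the data, edgeR called 5 members (9.84% of all genes), 4 of them lower (4.77%) and 1 higher (5.07%), KRT14 among them at -3.41 (adjusted p = 0.00452).

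KRT5, the type II partner of KRT14, was at 6952, 4350 and 3302 CPM (control 1 to 3) against 3883, 3203 and 3141 CPM (NRG1 1 to 3). NRG1 1 lay above control 3, so the groups overlapped, and control 1 stood above all other libraries. The log2 fold change was -0.51 (SE 0.28, 95% interval -1.15 to 0.12), with an adjusted p of 0.482 in edgeR, and it was -0.17 without control 1. KRT5 did not pass DESeq2 either (adjusted p = 0.486), but passed limma-voom with quality weights, a setting chosen after seeing the data, at -0.70 (adjusted p = 0.0260).

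The balance of this basal pair held less KRT14 in every NRG1 library than in any control. There were 19.0, 13.6 and 29.2 KRT14 counts per 100 KRT5 counts (control 1 to 3) against 8.95, 2.73 and 2.98 (NRG1 1 to 3). All NRG1 libraries lay below all controls. The log2 ratio of KRT14 to KRT5 was lower by a mean of -2.23 in the NRG1 group, with an SD between libraries of 0.55 in control and 0.95 in NRG1. A two-sided exact permutation test gave p = 0.1 (no smaller p is possible with 3 libraries per group), and 0.12 after Benjamini-Hochberg adjustment over 6 ratios. All the other ratios gave the same p of 0.1 in this test, except KRT6C to KRT6A at 0.2. The test therefore does not set KRT14 to KRT5 apart from them.

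KRT15, the other type I keratin of basal cells, went the opposite way in 2 libraries. It was at 16.2, 11.5 and 7.49 CPM (control 1 to 3) against 13.4, 80.4 and 79.4 CPM (NRG1 1 to 3). NRG1 1 lay inside the control range, and NRG1 2 and NRG1 3, the close pair, lay well above it. The log2 fold change was 2.30 (SE 0.61, 95% interval 0.90 to 3.71), with an adjusted p of 0.328 in edgeR and 0.00773 in DESeq2. Without NRG1 1 it passed edgeR at 2.77 (adjusted p = 0.0419). With NRG1 2 and NRG1 3 summed to 1 library, a setting chosen after seeing the data, it was 2.02 (adjusted p = 0.807). KRT15 was 0.390%, 0.339% and 0.177% of the set's type I counts (control 1 to 3) against 0.717%, 4.98% and 4.92% (NRG1 1 to 3). KRT14 was 31.8%, 17.4% and 22.8% of them (control 1 to 3) against 18.7%, 5.43% and 5.80% (NRG1 1 to 3). In NRG1 2 and NRG1 3 the 2 genes were thus at nearly the same count.

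Among the keratins of wound-activated epithelium, KRT17 gave the most even contrast. It was at 2696, 2596 and 3140 CPM (control 1 to 3) against 1483, 1379 and 1368 CPM (NRG1 1 to 3). The groups did not overlap, and libraries within a group lay close together, control 3 and NRG1 1 included. The means were 2811 ± 290 and 1410 ± 63.2 CPM (SD, n = 3 each). The fitted log2 fold change was -0.995 (SE 0.16, 95% interval -1.35 to -0.64). Its p-value ranked 17th of 15421 genes in edgeR, with an adjusted p of 0.166, and DESeq2 gave an adjusted p of 2.05e-06. Without NRG1 1, which left the close pair NRG1 2 and NRG1 3, it passed edgeR at -1.03 (adjusted p = 0.0492). Without NRG1 2 it was -0.977 (adjusted p = 0.792 in edgeR), and without NRG1 3 it was -0.972 (adjusted p = 0.850). With NRG1 2 and NRG1 3 summed to 1 library, a setting chosen after seeing the data, KRT17 was at -0.974 (adjusted p = 0.760).

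KRT16, a type I partner of the KRT6 chains, was at 124, 196 and 115 CPM (control 1 to 3) against 17.9, 67.0 and 71.0 CPM (NRG1 1 to 3). All NRG1 libraries lay below all controls, with NRG1 1 lowest. The log2 fold change was -1.47 (SE 0.46, 95% interval -2.53 to -0.42), with an adjusted p of 0.352 in edgeR and 0.0745 in DESeq2. For KRT14, its close copy, NRG1 1 was instead the highest of the NRG1 libraries.

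KRT6B was at 60.6, 88.4 and 55.4 CPM (control 1 to 3) against 21.3, 28.2 and 28.1 CPM (NRG1 1 to 3), again without overlap. The log2 fold change was -1.39 (SE 0.24, 95% interval -1.94 to -0.85), with an adjusted p of 0.170 in edgeR and 0.000128 in DESeq2. KRT6A, by far the most abundant of its close copies, was at 3368, 2177 and 2464 CPM (control 1 to 3) against 3626, 2237 and 2215 CPM (NRG1 1 to 3). Its groups overlapped fully, with control 1 and NRG1 1 highest. The log2 fold change of KRT6A was 0.012 (SE 0.26, adjusted p = 0.987 in edgeR). Its 95% interval ran from -0.58 to 0.60, so a change within that range was not excluded. The sum of KRT6A, KRT6B and KRT6C gave -0.0070 (adjusted p = 0.993), since KRT6A made up nearly all of it.

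KRT6C was at 37.6, 25.5 and 31.6 CPM (control 1 to 3) against 52.5, 31.8 and 27.8 CPM (NRG1 1 to 3), with a log2 fold change of 0.24 (SE 0.28, adjusted p = 0.742 in edgeR). Its order over the libraries was close to that of KRT6A: KRT6C counts were 1.12%, 1.18% and 1.28% of KRT6A counts (control 1 to 3) against 1.45%, 1.42% and 1.25% (NRG1 1 to 3). KRT6B did not keep such a share, with 1.80%, 4.06% and 2.25% in control and 0.587%, 1.26% and 1.27% in NRG1. As shown by the 75-base stretch above, KRT6B and KRT6C differ from KRT6A at single bases, and which reads of KRT6C belong to KRT6A was not tested. KRT75 held 3.59 to 17.1 expected counts per library (0.404 to 1.37 CPM), failed the filter and was not tested.

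The pseudogene KRT16P6 gave a similar pair of ratios. Of the 148 keratin pseudogenes, 7 were tested and 0 passed edgeR. KRT16P6 alone had an unadjusted p under 0.05 (11.8% of all genes did) and groups that did not overlap (19.6% of all genes). It was at 5.16, 3.63 and 4.86 CPM (control 1 to 3) against 1.36, 0.374 and 0.434 CPM (NRG1 1 to 3) (log2 fold change -2.72, SE 0.49). Despite its name, 8.37% of the 50-base windows of KRT14 occur in KRT16P6. Its counts stayed at 0.379% to 0.615% of those of KRT14 in all 6 libraries, but ran from 0.591% to 7.36% of those of KRT16. These ratios rest on very few counts in the NRG1 group. All KRT16 and KRT17 pseudogenes together, KRT16P6 included, held 29.68, 17.63 and 17.65 expected counts (NRG1 1 to 3). With pseudogene counts added to the genes they are named for, KRT16, which received KRT16P6, went from -1.47 to -1.49 on the log2 scale. KRT14 received no counts in that setting, so its unchanged -2.45 does not show how pseudogene reads bear on it.

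**Figure D3:**
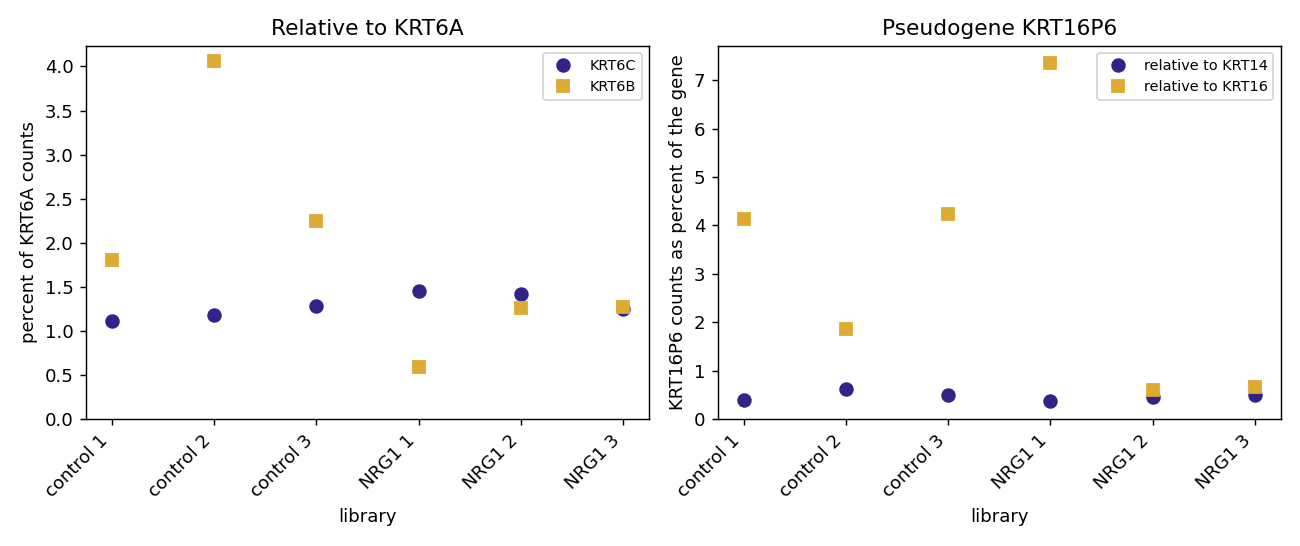
Counts of KRT6C and KRT6B as a percent of KRT6A counts (left) and of the pseudogene KRT16P6 as a percent of KRT14 or KRT16 counts (right), in each of the 6 libraries. KRT6C stayed between 1.12% and 1.45% of KRT6A and KRT16P6 between 0.379% and 0.615% of KRT14, while KRT6B and the ratio to KRT16 spread more widely. KRT16P6 was at 0.374 CPM in NRG1 2 and 0.434 CPM in NRG1 3, so its ratios there rest on very few counts.

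Summed over the set, keratin RNA was lower in the NRG1 libraries, without overlap for type I and with overlap for type II. The single genes with large differences in mean were of both types. KRT5 averaged 4868 CPM in control, where control 1 was highest, and 3409 CPM in NRG1. KRT17 averaged 2811 and 1410 CPM, and KRT14 959 and 176 CPM. The 9 genes together had 14578, 10035 and 10081 CPM (control 1 to 3) against 9445, 7115 and 7024 CPM (NRG1 1 to 3). The summed level of the type I members was 3927 ± 463 CPM for control libraries and 1696 ± 144 CPM for NRG1 libraries, with no overlap. The type II members summed to 7638 ± 2441 and 6166 ± 1229 CPM, with overlap, NRG1 1 at 7584 CPM lying above 2 of the controls. Type I members were 28.5%, 33.8% and 41.9% of the set's counts (control 1 to 3) against 19.7%, 22.7% and 23.0% (NRG1 1 to 3). These sums follow from members chosen with results known and have no test.

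**Figure D4:**
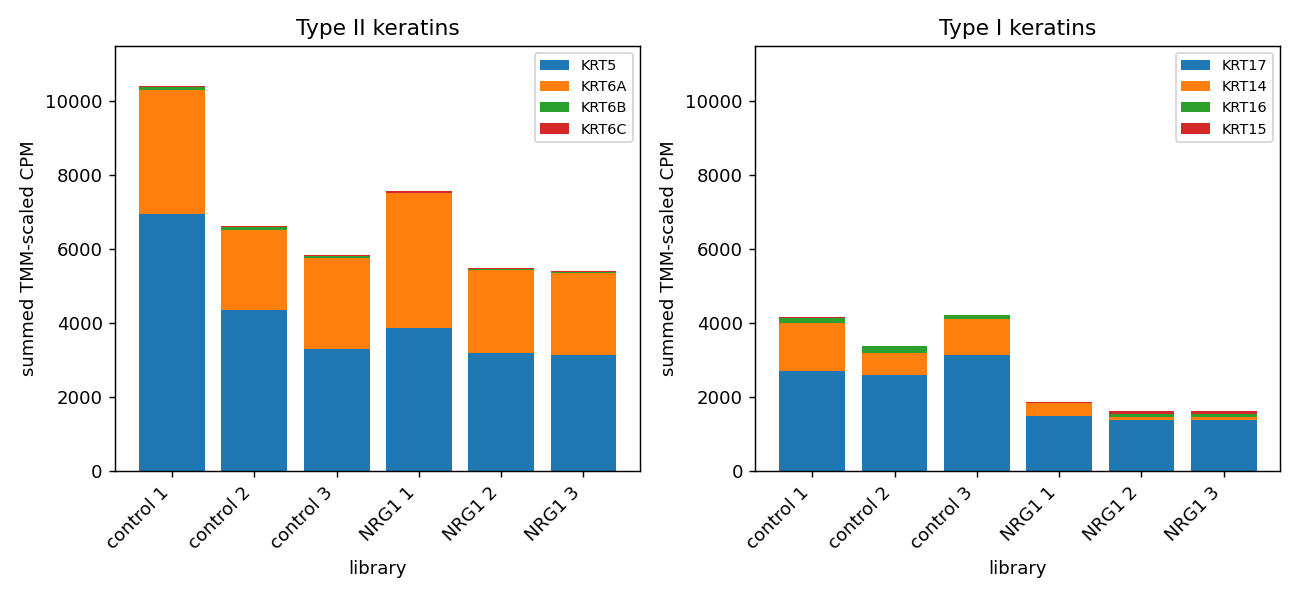
Summed TMM-scaled CPM of the type II (left) and type I (right) keratins in each library, stacked by gene; KRT75, at most 1.37 CPM, is not drawn. The type I bars of the NRG1 libraries reach 1612 to 1862 CPM against 3394 to 4228 CPM in control, through KRT17 and KRT14, while the type II bars overlap between the groups.

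The pattern over the libraries differed between members. With the log2 CPM of each gene centred on its mean over the 6 libraries, the gene nearest to KRT14 among 12128 candidates was FN1 (fibronectin; root mean square difference 0.27, where KRT14 itself had an SD of 1.67). Nearest to KRT16 was S100A8, a subunit of calprotectin, at 13.5, 30.1 and 14.2 CPM (control 1 to 3) against 2.60, 8.32 and 9.34 CPM (NRG1 1 to 3) (0.17), followed by MAPK4 and PALM2AKAP2. Nearest to KRT6B were IFI44, RIGI (a sensor of viral RNA) and DHX58, at 0.16, 0.21 and 0.24, all known as interferon-induced. KRT17 lay nearest to GPR176, ABCC3 (a transporter) and RAD54L (of DNA repair), at 0.048, 0.048 and 0.086. KRT6A lay nearest to TPI1 (of glycolysis), RUNX1 and PSMA4 (of the proteasome), and KRT6C to HSP90AB3P, EIF4A1 and XRCC6, all at 0.068 or less. KRT15 lay nearest to PRR15L, ACSS1 and RNF207 (0.18 to 0.44), and KRT5 to PLA2G4A, TPBG and MOB3B (0.084 to 0.14). With 6 libraries and so many candidates, near matches occur for any gene, and these are a description.

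Of 46 other keratin genes 12 were tested, and 0 passed edgeR. An unadjusted p under 0.05 was found for 1 that was higher (5.07% of all genes were) and 1 that was lower (6.72%). The median log2 fold change of the 12 was 0.21. KRT19, a type I keratin of simple epithelium, was at 383, 121 and 155 CPM (control 1 to 3) against 634, 993 and 896 CPM (NRG1 1 to 3) (log2 fold change 1.94, SE 0.42, adjusted p = 0.252 in edgeR), so the type I keratins did not all lie on one side. The other simple keratins KRT8, KRT18 and KRT7 had log2 fold changes of 0.10, -0.23 and -0.41, with groups that overlapped, as did KRT80, KRT10 and KRT13. KRT1, the type II keratin of cornifying layers, chosen after its values were seen, was at 1.61 to 4.34 CPM in control and 0.124 to 0.217 CPM in NRG1.

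Desmosomes and hemidesmosomes anchor keratin filaments to neighbouring cells and to the basement membrane. Of 20 such genes 19 were tested and 0 passed edgeR. Without adjustment, p was under 0.05 for 2 that were higher (5.07% of all genes were) and 3 that were lower (6.72%). Their median log2 fold change over the 19 was 0.11. The desmosomal cadherin DSG2 was at 314, 349 and 281 CPM (control 1 to 3) against 479, 426 and 435 CPM (NRG1 1 to 3), without overlap. DSG3, the cadherin of basal layers, was at 223 CPM on average in control and 420 CPM in NRG1, with overlap. DSG1, of the upper layers, was at 1.05 to 3.23 CPM in control and at most 0.217 CPM in NRG1. Of the hemidesmosome, COL17A1 was at 1101, 876 and 709 CPM (control 1 to 3) against 391, 709 and 659 CPM (NRG1 1 to 3).

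Of 24 transcription factors known to act on keratin genes 23 were tested and 0 passed edgeR. Unadjusted p was under 0.05 for 1 of them, which was lower (6.72% of all genes were), and for 0 that were higher (5.07%). KLF4, of differentiating layers, was at 128, 133 and 163 CPM (control 1 to 3) against 117, 96.6 and 100.4 CPM (NRG1 1 to 3), without overlap. KLF5 and FOSL2 had log2 fold changes of 0.33 and 0.34, and TP63 had one of 0.09 (SE 0.19). The AP-1 gene JUN was at 1103 CPM in control 3 and 86.2 to 161 CPM in the other 5 libraries. KRT17, at 3140 CPM, was the highest in control 3, while KRT6B, KRT16 and KRT5 had their lowest control level there; the part of this library's state in the keratin levels was not tested.

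Of 25 genes that accompany stress keratins in wound-activated epithelium 21 were tested and 0 passed edgeR. In this list 6 were lower at an unadjusted p under 0.05 (6.72% of all genes were) and 1 was higher (5.07%). The median log2 fold change over the 21 was -0.31. The integrin chain ITGA5 was at 156, 131 and 178 CPM (control 1 to 3) against 110.4, 91.8 and 88.6 CPM (NRG1 1 to 3). SPRR1A, a cornified envelope precursor, averaged 3.79 CPM in control and 1.26 CPM in NRG1, without overlap. LCN2, a secreted iron-scavenging protein, was higher in every NRG1 library, with means of 5.39 ± 2.85 CPM (control) and 30.7 ± 21.2 CPM (NRG1; SD, n = 3 each).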

How the data were processed

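The AALE libraries (control vector, NRG1 vector) are of polyA RNA made with TruSeq reagents, as stated per the labels' protocols, and sample titles gave the groups. Tools named in the submitters' processing notes, without their roles, are RSEM 1.3.0, STAR 2.5.3a, MultiQC 0.9 and FastQC 0.11.3, with the build hg19; which annotation was counted is not stated there. The authors deposited expected counts, not normalized. Their second deposited table holds log2 CPM of 14759 genes, and differed by at most 4.97e-14 from TMM-scaled log2 CPM (prior count 0.25) of the counts.

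After rounding, the expected counts went into edgeR 4.0.16 under R 4.3.3 (TMM, filterByExpr, quasi-likelihood, no covariate). A gene passed at a Benjamini-Hochberg adjusted p under 0.05. Alternatives used DESeq2 1.42.0, limma 3.58.1, other scalings, filters and pseudocounts, a replicate block, leaving out libraries and summing close copies. Added after seeing the data were 2 against 2 libraries, NRG1 2 and NRG1 3 summed, edgeR's older dispersion method and quality weights. The members, lists and tests were chosen with earlier results of these data known. Named genes were all members, NRG1, up to 4 genes per list by p, other keratins with a group mean of 5 CPM or more, and the 3 genes nearest to each member. Some genes that this rule names are not reported here. Symbols matched 51959 of 57736 identifiers. Sequences came from GENCODE 29 transcripts (GRCh38), 1 principal transcript per gene, without the stop codon. The fits were tried on simulated counts with a common dispersion. That simulation had no libraries standing apart and no close pair, so it does not cover those features of these data.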

Additional observations from a re-analysis of the deposited data

How the results depend on the processing

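KRT5, KRT14, KRT15, KRT16, KRT17 and KRT6B kept their direction in all 23 alternatives, and KRT6A and KRT6C did not. Where close copies were summed, each summed gene was given the value of the sum, which does not show its own direction. The number of genes called was 1 with edgeR, 209 with DESeq2, 21 with no low-count filter, 2 with both limma-trend pseudocounts and with limma-voom without rounding, 1547 with 2 against 2 libraries and 1602 with quality weights; leaving out 1 library gave 1 to 50, the highest without NRG1 1. Members called, of 8 tested, went from 0 to 4 in DESeq2 (1.36% of all genes) and 1 (KRT17) with no low-count filter (21 of 29827 genes). They were 5 with 2 against 2 libraries (9.84% of all genes) and 6 with quality weights (1602 of 15421 genes). Without 1 library they ran from 0 to 3, the highest without NRG1 1 (50 of 16056 genes). The related lists held 12 other keratins, 7 pseudogenes, 19 anchor genes, 23 transcription factors and 21 wound genes tested in edgeR. Genes called in them went from 0 to 6 in DESeq2, 26 with 2 against 2 libraries and 25 with quality weights. Without 1 library they ran from 0 to 1. The shares of all genes called in these settings are those given for the members. In the comparison of 2 against 2 libraries 4 members were lower (4.77% of all genes) and 1 higher (5.07%). The replicate numbers did not pair the libraries (correlations of same-numbered deviations 0.020, 0.125 and -0.080; control 1 alone correlated best with its own number), and the replicate block called 2 genes and 0 members. KRT6A was above 0 in edgeR and turned to -0.026 with library totals alone, -0.0099 with no low-count filter, -0.0025 in both limma-trend fits and in the replicate block, -0.010 in limma-voom without rounding, -0.0016 on the deposited log2 table, -0.32 with 2 against 2 libraries and -0.22 with quality weights. Both KRT6A and KRT6C were -0.0070 when the 3 KRT6 genes were summed, as was KRT6B. KRT6C turned to -0.093 with 2 against 2 libraries and -0.046 with quality weights. Without 1 library KRT6A ran from -0.26 to 0.21 and KRT6C from -0.082 to 0.41. Summing KRT14, KRT16 and KRT17 gave -1.26 (adjusted p = 0.104). The summed level of the members was lower by a log2 difference of -0.55, and stayed within 1 SD of that with library totals alone and with pseudogenes. The cause of these shifts was not tested. KRT75, with 3.59 to 17.1 expected counts per library, was too shallow to test.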
